A study of Mus musculus with 12 samples.

Results

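Long noncoding RNAs (lncRNAs) are transcripts without a long open reading frame. Some stay in the nucleus and organise chromatin or nuclear bodies, as Xist does on the inactive X chromosome and Neat1 does in paraspeckles. Others are host transcripts from which microRNAs (miRNAs) or small nucleolar RNAs (snoRNAs) are cut, and in muscle the miRNAs miR-206 and miR-133b come from such a transcript.

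C2C12 is a mouse myoblast line that fuses into myotubes when serum is withdrawn. RNA-seq was made from stable C2C12 lines carrying GFP, METTL3 or METTL14 on a CMV promoter vector, METTL3 and METTL14 being the core of the enzyme that writes m6A. GFP-overexpressing cells were taken in growth medium (GM, day 0) and after 4 days of differentiation medium (D4), and METTL3- and METTL14-overexpressing cells were taken in GM, with 2 libraries in each of the 4 groups. The time point field of the METTL14-overexpressing libraries names day 4, whereas their titles name day 0, and the titles were followed. The deposited data are 3 tables of genes that passed the authors' FDR limit of 0.05, one for D4 against GM in GFP-overexpressing cells (D4 table), one for METTL3 against GFP in GM (METTL3 table) and one for METTL14 against GFP in GM (METTL14 table). The METTL3 and METTL14 tables share the GFP libraries as control, which are also the GM side of the D4 table.

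The lncRNAs described here are the genes of these tables typed as lincRNA, antisense, sense intronic, sense overlapping or bidirectional promoter lncRNA whose mean normalized count reached 20, without H19, Meg3, Rian and Mirg. There were 227 of them among the 10289 genes listed in any table (2.21%). Another 246 genes of the same types lay under the minimum. The members nearest to the limit were Gm26789 at 20.2, 0610040B10Rik at 20.4 and Gm29100 at 20.8, and the genes just outside it were Gm48194 at 19.4, A430078I02Rik at 19.3 and 5031415H12Rik at 18.9. The members were thus chosen by their listing and by their mean count, and both are given as descriptions.

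The mean normalized count is 1 value per gene, pooled by the authors over libraries, and a gene's value did not differ between tables (largest relative difference 4.77e-10). Which libraries enter it is not stated in the sources used here, and a common set was assumed. It carries no replicate spread and pools groups between which most lncRNAs were listed, so the levels below belong to no single group, and no order of them was tested. The libraries' depth cannot be read from the tables. A listing says that a gene passed the authors' limit, and no direction or size of change is given here. A lncRNA listed in the D4 table may differ in RNA per cell or in the share of cells that hold it, and bulk RNA cannot tell these apart. Myoblast and myotube genes were present at the pooled level, with Myod1 at 1845, Myog at 2124 and Myh3 at 40372 normalized counts. Myod1 was listed in the METTL3 and METTL14 tables. Mettl3 was listed in the METTL3 table alone, and Mettl14 in the METTL14 and D4 tables. Because the vectors carried the mouse coding sequences, reads from vector and genome count together for both genes.

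Some of the members are host transcripts of small RNAs. Of the 227 lncRNAs, 20 held an annotated miRNA or snoRNA gene within their span on the same strand (8.81%), against 1.43% of the 9360 lncRNA genes of the same types in the GENCODE M21 annotation of GRCm38. The 13 miRNA hosts held 23 miRNA genes, and 21 of these had a mature sequence in RefSeq (GRCm38.p6). The sequences below run 5′ to 3′, with the seed (bases 2 to 8), which pairs with target mRNAs, in capitals.

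Gm28653 was the host with the highest mean count (2593 normalized counts) and, of the 20 hosts, the only one listed in the METTL3 table. It lies on chromosome 1 (chr1:20669882-20684298, GRCm38, plus strand) and spans Mir206 (mature 3p arm at chr1:20679055-20679076) and Mir133b (3p arm at chr1:20682834-20682855), both known as muscle miRNAs. Their seeds differ.
mmu-miR-206-3p: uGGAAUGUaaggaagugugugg
mmu-miR-133b-3p: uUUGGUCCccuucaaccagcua

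Mir17hg, on chromosome 14, is the host of the Mir17 cluster, which is known for its part in proliferation. It had a mean of 155 normalized counts and held 6 miRNA genes. Its cluster has 2 pairs of miRNAs with a shared seed, shown here because they differ only outside it.
mmu-miR-17-5p: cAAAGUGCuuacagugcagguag
mmu-miR-20a-5p: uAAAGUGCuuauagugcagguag
mmu-miR-19a-3p: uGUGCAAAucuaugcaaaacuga
mmu-miR-19b-3p: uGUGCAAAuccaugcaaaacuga

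6720427I07Rik (128 normalized counts) spans 3 let-7 genes on chromosome 13, all with the seed of the let-7 family, which is known for restraining growth in differentiated cells.
mmu-let-7a-5p: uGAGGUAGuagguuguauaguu
mmu-let-7d-5p: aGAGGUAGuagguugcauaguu
mmu-let-7f-5p: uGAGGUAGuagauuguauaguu

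Dnm3os, an antisense transcript inside Dnm3 on chromosome 1 (922 normalized counts), held Mir199a-2 and Mir214, and Gm49890 on chromosome 4 (607 normalized counts) held Mir31. These hosts had the next highest mean counts after Gm28653.
mmu-miR-199a-5p: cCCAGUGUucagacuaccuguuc
mmu-miR-214-3p: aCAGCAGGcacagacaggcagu
mmu-miR-31-5p: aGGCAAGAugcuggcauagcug

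Mir155hg, host of the miRNA miR-155, was lower, at 54.4 normalized counts. Ftx, a transcript of the X inactivation centre that held Mir421 and Mir374b, stood at 306 normalized counts. Mir99ahg, another miRNA host, is typed as a processed transcript and so is not among the 227. Its mean was 145 normalized counts, and it was listed in the D4 and METTL14 tables. It lies on chromosome 16 (chr16:77236317-77773427, plus strand) and holds Mir99a, Mirlet7c-1 and Mir125b-2.
mmu-miR-99a-5p: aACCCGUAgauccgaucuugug
mmu-let-7c-5p: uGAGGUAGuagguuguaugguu
mmu-miR-125b-5p: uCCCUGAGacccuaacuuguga

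The let-7c seed is the one shared by the 3 let-7 miRNAs of 6720427I07Rik. Mature miRNAs were not measured, and a listed host says nothing of its miRNA's level.

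All 20 hosts were listed in the D4 table, which held 95.3% of all genes with the same minimum. Of the 20, 1 (Gm28653) was in the METTL3 table and 0 were in the METTL14 table, against 18.8% and 11.7% of all genes. The snoRNA hosts among them carry RNAs that guide modification of ribosomal RNA. Snhg12 had a mean of 485 normalized counts and held 5 snoRNA genes, Snhg15 had 352, Snhg6 had 337, Snhg16 had 161 and Snhg18 had 155. Of the 23 miRNA and 14 snoRNA genes inside the hosts, only Snord87 (in Snhg6, 20.1 normalized counts) and Gm23639 (in Epb41l4aos, 7.14) were listed themselves, both in the D4 table.

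The lncRNAs were expressed at low levels with a few very abundant exceptions. Their median mean count was 52.9 (interquartile range 31.5 to 129), against 607 (242 to 1352) for the protein-coding genes with the same minimum. Per kilobase of merged exons the medians were 23.8 for the lncRNAs and 128 for the protein-coding genes. A mean count of at least 100 was reached by 69 lncRNAs, at least 500 by 11 and at least 1000 by 8.

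Malat1 (34005 normalized counts), a nuclear speckle RNA, Xist (29877), which coats the inactive X chromosome, and Neat1 (7365), the scaffold of paraspeckles, made up 69.8% of the summed mean counts of the 227. Malat1 and Neat1 lie 22035 bp apart on chromosome 19, both on the minus strand. The next in order were Gm28653 (2593), Oip5os1 (1924), known as Cyrano and as a regulator of miR-7, Gm47015 (1500), AU020206 (1354), Brip1os (1217), Dnm3os (922) and Gm35019 (921). The first 10 held 80% of the sum.

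Scaled to exon length the order changed in part, and 7 of the 10 highest stayed among the 10 highest. Malat1 (4870 normalized counts per kilobase) and Xist (1665) still led. Bc1, a short RNA known as a translational repressor in neurons, was next at 1042 per kilobase, with a mean of 175 normalized counts over 168 bp. Gm49890 (558), Gm47015 (554), Gm28653 (467), AU020206 (425), Gm35019 (407), Neat1 (355) and 3300005D01Rik (352) followed. The lowest per kilobase was Gm4117 at 0.626, an antisense transcript of Vcan, and Kcnq1ot1, the long antisense RNA of an imprinted domain, was next at 3.07. Kcnq1ot1 had a mean of 286 normalized counts before this scaling.

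**Figure D1:**
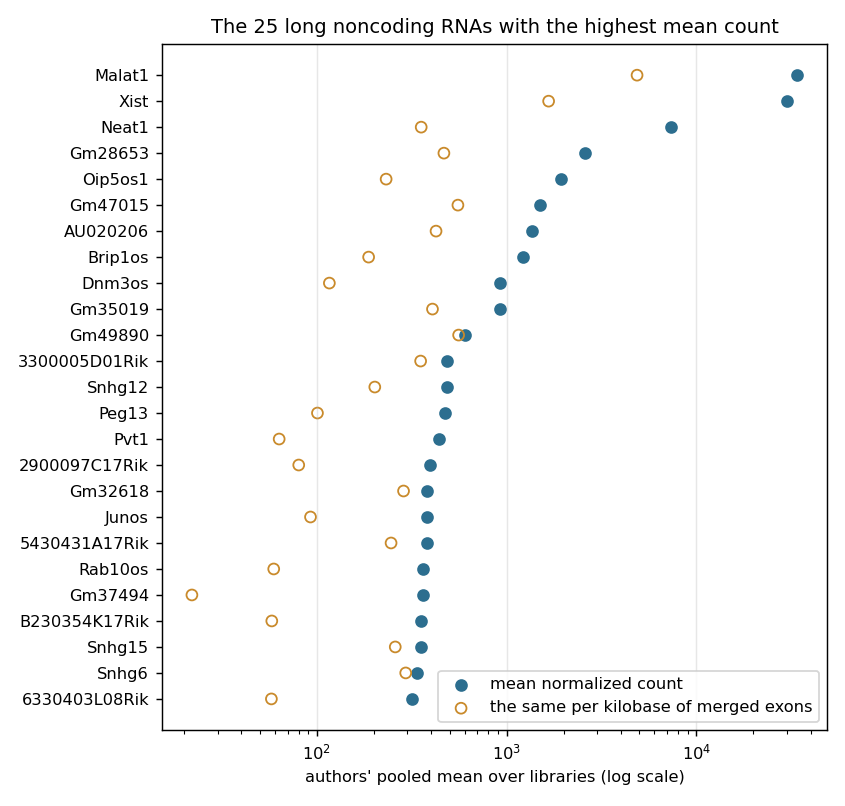
Authors' pooled mean normalized count (filled) and the same value per kilobase of merged exons (open), on a log axis, for the 25 lncRNAs with the highest mean count, 1 value per gene and no error. Malat1 and Xist lie apart from the others on the first scale, and Neat1 falls from 7365 to 355 per kilobase.

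By type, 125 of the lncRNAs were lincRNAs, 73 antisense, 13 sense intronic, 13 bidirectional promoter lncRNAs and 3 sense overlapping. The antisense transcripts were all listed in the D4 table (73 of 73), as were the sense intronic, bidirectional and sense overlapping ones, and the 6 lncRNAs that the D4 table did not list were all lincRNAs. The D4 table held 95.3% of all genes with the same minimum, so full listing of a type is close to the background. Of those in the METTL3 table, 13 were lincRNAs, 3 antisense and 1 sense intronic, and of those in the METTL14 table, 7 were lincRNAs and 1 antisense.

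The first comparison was between myoblasts and differentiating cells. The D4 table listed 221 of the 227 lncRNAs (97.4%), against 95.3% of all 9116 genes with the same minimum and 95.2% of the 8603 protein-coding genes. The lncRNAs' share was close to this background. The D4 table holds most rows of the series (9823), so a gene listed anywhere was usually listed there. Of the lncRNAs, 209 were listed in the D4 table alone.

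Members of 5 lists of lncRNAs known by name were all in the D4 table, a count near the background of 95.3%. Of 17 names on a list headed nuclear RNAs, 11 were members, with a median of 442 normalized counts. Where these RNAs lie in the cell was not measured, and all 11 were listed for D4. Besides Malat1, Xist, Neat1, Oip5os1, Ftx and Kcnq1ot1 they were Peg13 (476 normalized counts), an imprinted transcript, Pvt1 (442), the neighbour of Myc, Airn (82.7), which overlaps and silences Igf2r, Lncpint (25.7), a p53 target, and Trp53cor1 (24.9), known as lincRNA-p21. Of 21 transcripts listed by name as snoRNA hosts 6 were members, and of 14 listed by name as miRNA hosts 4 were, Dnm3os, Mir17hg, Mir155hg and Carmn (24.2). All were listed for D4. These lists go by name, whereas the 13 miRNA hosts and 8 snoRNA hosts above were found by span, and no annotated miRNA gene lay within the span of Carmn.

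Of 19 muscle transcripts on a list, 5 were members, and all 5 were listed for D4. These were 5430431A17Rik (380 normalized counts), Bvht (59.8), known as Braveheart in cardiac lineage commitment, Atcayos (54.5), 2310043L19Rik (30.9) and Myhas (22.8). Myhas lies antisense to the fast myosin heavy chain genes, and its nearest coding gene Myh1 had 16797 normalized counts. Part of the Myhas exons (25.4%) lies within exons of coding genes, and whether counting used strand is not stated, so reads of Myhas and of the myosin genes cannot be told apart there. Hotair (83.3), a transcript of the HoxC cluster, was the only member among 12 Hox cluster transcripts and was listed for D4. None of the members on these 5 lists was in the METTL3 or METTL14 table, which held 7.49% and 3.52% of the 227 lncRNAs and 18.8% and 11.7% of all genes. Names on the lists that are typed as processed transcripts are outside the 227. Among those, Mir99ahg was in the METTL14 table and Hoxa11os in the METTL3 table. The lists do not hold Gm28653, the host of miR-206 and miR-133b, which was in the METTL3 table, or Dubr, which was in both.

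The second comparison was between METTL3- and GFP-overexpressing cells in GM. The METTL3 table listed 17 of the 227 lncRNAs (7.49%), against 18.8% of all genes and 19.5% of protein-coding genes with the same minimum. The last comparison was between METTL14- and GFP-overexpressing cells. The METTL14 table listed 8 lncRNAs (3.52%), against 11.7% of all genes and 12.1% of protein-coding genes. These shares were read as counts and were not tested.

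The plot by level gives both kinds of gene within the same range of mean counts. These ranges use the pooled mean. Genes within a range may thus differ in level in the GM libraries that the METTL3 and METTL14 tables compare. From 20 to 50 normalized counts the METTL3 table listed 4.72% of 106 lncRNAs and 19.6% of 509 protein-coding genes. From 50 to 100 it listed 3.85% of 52 and 19.4% of 489, and from 100 to 500 it listed 12.1% of 58 and 18.5% of 2743. At 500 and over it listed 3 of the 11 lncRNAs (27.3%) and 20% of 4862 protein-coding genes. The METTL14 table listed 1.89%, 3.85%, 6.9% and 0% of the lncRNAs in these ranges, against 10.2%, 14.5%, 12.3% and 12% of protein-coding genes.

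**Figure D2:**
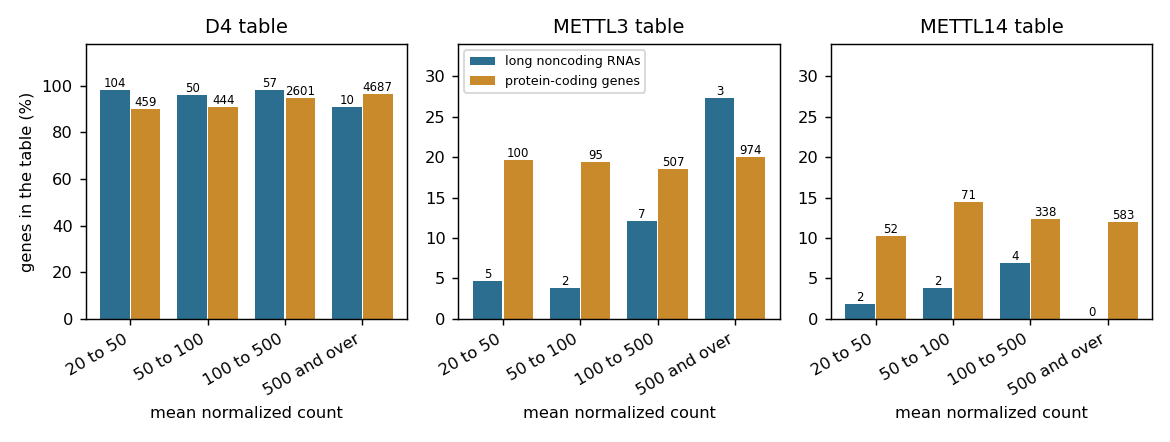
Share of lncRNAs (blue) and protein-coding genes (orange) with a given pooled mean normalized count that each table lists, in percent of the genes listed in any table, with the number listed above each bar. The lncRNA bars of the METTL3 and METTL14 tables are below the protein-coding bars in every range but the highest METTL3 one, where 3 of 11 lncRNAs were listed.

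In all, 18 lncRNAs were listed in the METTL3 or the METTL14 table, and 7 in both, which is 41.2% of the METTL3 and 87.5% of the METTL14 lncRNAs. The same shares over all genes were not computed, so this overlap is not read as a trait of the lncRNAs. The tables share their GFP libraries. Gm36377, Gm38403, Gm2694, Gm19589 and Gm15222 were listed in all 3 tables. Gm28653, Gm35019, Junos, Gm14221, A330074K22Rik, Gm12473 and BC002189 were in the D4 and METTL3 tables. Dubr, known as Dum and as a regulator of myoblast differentiation, and Gm30339 were in the METTL3 and METTL14 tables. AU020206, Gm15398 and Platr3 were in the METTL3 table alone, and Gm36684 was in the METTL14 table alone.

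The most abundant of the 18 after Gm28653 was AU020206 (1354 normalized counts, chr7:75769038-75782099), which the D4 table did not list. Gm35019 (921, chr15:37892995-37899716), Junos (381) and Gm14221 (264, chr2:160568379-160619971) followed. Those in all 3 tables had lower means, with Gm36377 at 189, Gm38403 at 174, Gm2694 at 129, Gm19589 at 62.6 and Gm15222 at 41.4. Dubr stood at 167 normalized counts (chr16:50719294-50732773) and Gm30339 at 39.8. Platr3, whose family was named for pluripotency, had the lowest mean at 23.3.

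**Figure D3:**
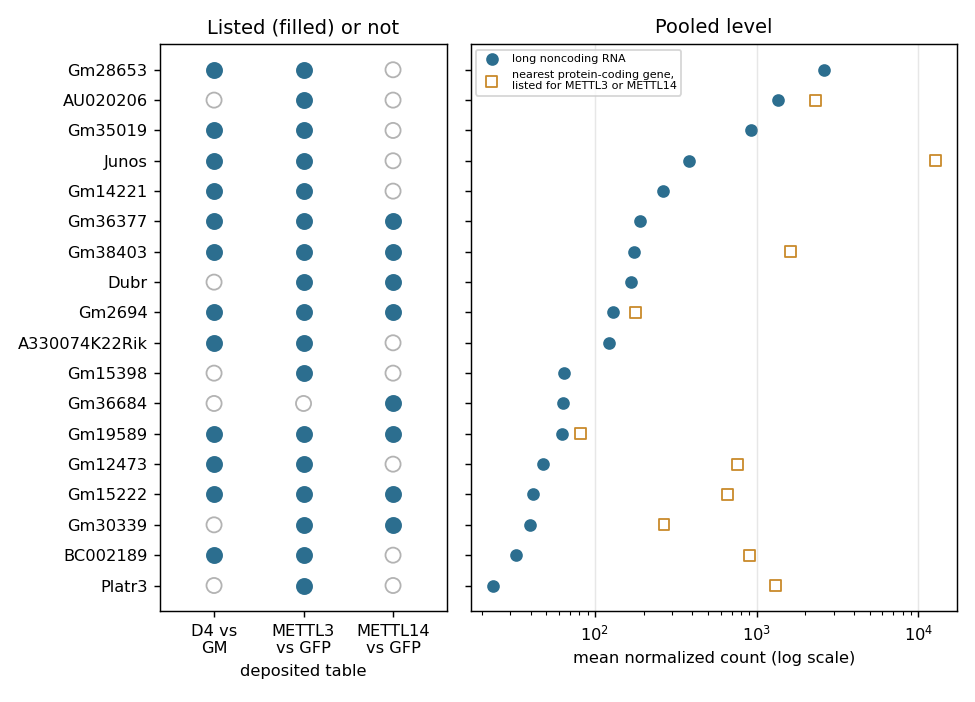
The 18 lncRNAs of the METTL3 or METTL14 table, with their listing in the 3 tables (left, filled where listed) and their pooled mean normalized count on a log axis (right, points), with squares for a nearest protein-coding gene that the METTL3 or METTL14 table also lists. The 5 lncRNAs listed in all 3 tables lie between 41.4 and 189 normalized counts.

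The lncRNAs lay close to protein-coding genes. All 227 identifiers were found in GENCODE M21, 223 with the same type. A protein-coding gene overlapped 107 of them (47.1%, against 39.2% of the 9360 annotated lncRNA genes). The overlapping gene was on the other strand for 87 (38.3%, against 34.3%) and on the same strand for 20 (8.81%, against 4.97%). Among the 69 lncRNAs with a mean count of at least 100, the share on the other strand was 30.4%, below that of the annotation. The 120 that stood apart were a median of 11427 bp from the nearest protein-coding gene, against 48030.5 bp in the annotation, and 48.3% were within 10 kb, against 24.3%.

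Brip1os (1217 normalized counts, antisense to Ints2) and Dnm3os were the most abundant overlaps on the other strand after Xist. The coding gene that overlaps Xist in the annotation is Gm26992, which none of the 3 tables listed. Peg13 inside Trappc9, B930095G15Rik inside Farp1 (255) and 9230112E08Rik at Col20a1 (203) were the most abundant on the same strand. For 32 lncRNAs (14.1%, against 6.03% of the annotation) a protein-coding gene read the other way started within 1000 bp upstream of the lncRNA's start. The most abundant of these were Brip1os, 177 bp from Brip1, 5031425E22Rik, 172 bp from Kmt2e, and AI480526, 527 bp from Setd1b. Pairs that overlapped at their starts, such as Junos with Jun (688 bp) and B230354K17Rik with Cdc5l (139 bp), were not in this count. Exons of 73 lncRNAs overlapped exons of a protein-coding gene, over 50% of the exon length for 2 of them. Whether counting used strand is not stated, so the reads of both genes cannot be told apart there.

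**Figure D4:**
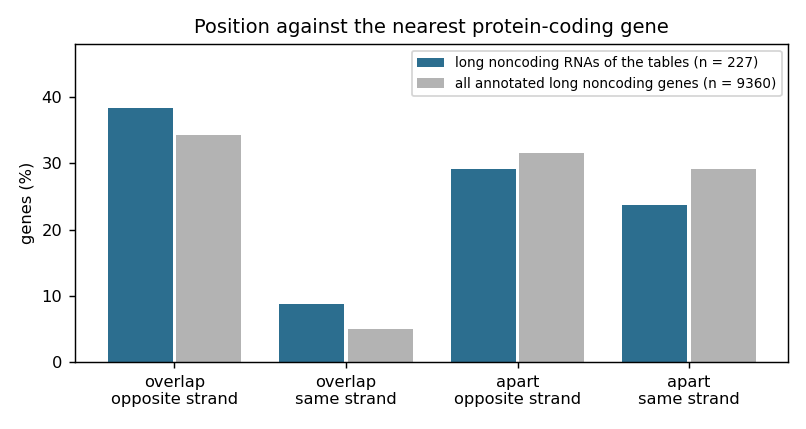
Position of the 227 lncRNAs (blue) and of all 9360 annotated lncRNA genes of the same types (grey) against the nearest protein-coding gene, in percent of genes. Overlaps on the other and on the same strand made up 38.3% and 8.81% of the 227, against 34.3% and 4.97% of the annotation, and the first share was 30.4% among lncRNAs with a mean count of at least 100.

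In the METTL3 table the nearest protein-coding gene of a listed lncRNA was often listed with it. This held for 10 of the 17 lncRNAs (58.8%), for 27 of the 210 lncRNAs that the table did not list (12.9%), for 13.9% of the protein-coding genes it listed and for 12.8% of all annotated lncRNA genes. In the METTL14 table it held for 4 of 8 lncRNAs (50%), against 10% of the 219 not listed, 10.8% of the listed protein-coding genes and 8.78% of annotated lncRNA genes. In the D4 table it held for 128 of 221 (57.9%), against 51.9% of listed protein-coding genes and 44.9% of annotated lncRNA genes. The neighbour's listing had no part in choosing the lncRNAs, but genes near each other are not independent, so no test is given.

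**Figure D5:**
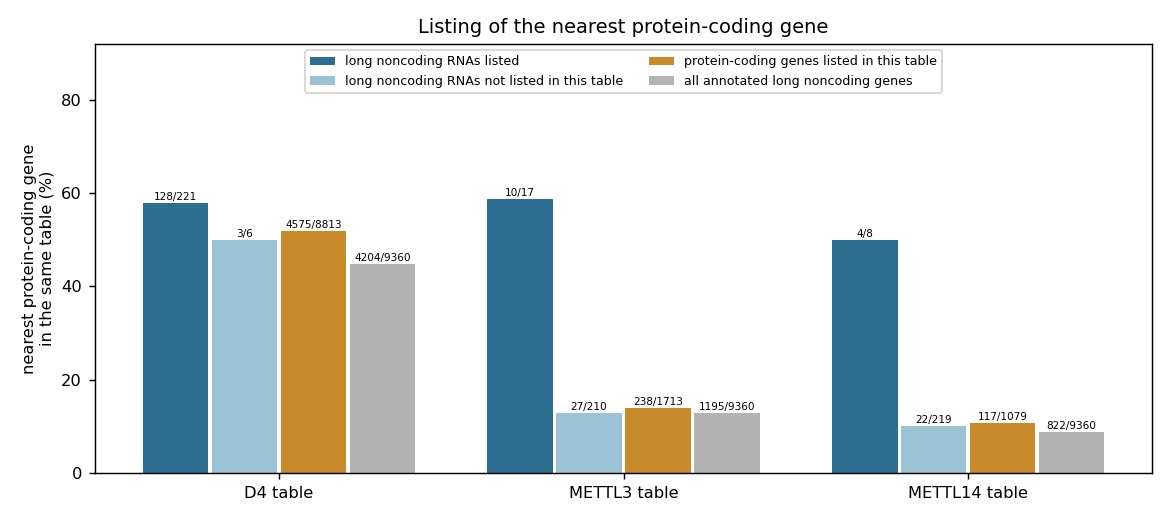
Share of genes, in percent, whose nearest protein-coding gene is in the same table, for the lncRNAs the table lists, the lncRNAs it does not list, the protein-coding genes it lists and all annotated lncRNA genes, with the counts above the bars. The dark bars of the METTL3 and METTL14 tables (58.8% and 50%) stand above the other bars (8.78% to 13.9%).

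Among these pairs of the METTL3 table, 5 overlapped. Junos (chr4:95051534-95167318) is antisense to Jun, a subunit of the AP-1 factor with 12746 normalized counts, and 5.64% of its exon length lies in coding exons. Gm15222 (chr14:46387519-46389282) is antisense to Bmp4, a growth factor of 658 normalized counts, without shared exons. Gm2694 (chr8:87460469-87525554) overlaps Cbln1 (179), also without shared exons. Gm12473 (47.6, chr4:43631539-43641533) is antisense to Npr2, a natriuretic peptide receptor of 759 normalized counts, and 45.9% of its exon length lies in coding exons, so its reads are uncertain. BC002189 (32.7, chr3:19685971-19686568) lies on the strand of Trim55, a sarcomere-associated ubiquitin ligase with 907 normalized counts. Its single exon shares no base with coding exons. It is typed as sense intronic, and whether its reads came from Trim55 RNA was not tested.

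The other 5 pairs stood apart. AU020206 is 14429 bp from Akap13 (2327 normalized counts), an anchor of protein kinase A. Platr3 (chr2:135648907-135652063) is 6948 bp from Plcb4 (1301), a phospholipase C. Gm38403 (chr10:118920381-118927143) is 50172 bp from the kinase gene Dyrk2 (1617), Gm19589 (chr1:88551517-88562167) is 41451 bp from Glrp1 (81.3), and Gm30339 (chr15:93734413-93738490) is 138522 bp from Prickle1 (267), a planar cell polarity gene. Of the lncRNAs that stood apart, 5 of 10 in the METTL3 table and 2 of 6 in the METTL14 table had a listed neighbour. The pairs Gm38403 with Dyrk2, Gm2694 with Cbln1, Gm15222 with Bmp4 and Gm30339 with Prickle1 were the 4 listed together in the METTL14 table.

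For others of the 18 the nearest coding gene was in neither METTL table. Gm28653 is 46607 bp from Il17a, Dubr is 128140 bp from Ccdc54, Gm35019 is 24236 bp from Rrm2b, and none of these 3 coding genes was in any table. Gm36377 is 13371 bp from Ice1 (1616 normalized counts), which only the D4 table listed.

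The windows from 250 bp before to 50 bp after each start site on GRCm38 were compared by their CpG ratio, the number of CpG over the number that the C and G content predicts. The median ratio was 0.453 for the 227 lncRNAs and 0.377 for the 18 of the METTL3 or METTL14 table, against 0.240 for annotated lncRNA genes, 0.524 for annotated protein-coding genes and 0.742 for listed protein-coding genes. A ratio of at least 0.6 was found for 40.5% of the lncRNAs, 14.4% of annotated lncRNA genes and 67.3% of listed protein-coding genes. The window of Gm28653 had a ratio of 0.227, and those of Gm15222, Junos and Xist had 0.724, 0.978 and 1.15.

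Short motifs were searched in these windows on both strands. CAGCTG, an E-box that MyoD-family factors are known to bind, was in 18.9% of the lncRNA windows, against 17.5% of annotated lncRNA and 15.6% of annotated protein-coding windows. CAGGTG, another E-box, was in 15%, against 22% and 20.4%. TATAAA was in 13.2%, against 13.9% and 12.7%. GATTGG, the reversed CCAAT box, was in 17.2%, against 12.4% and 17.9%. Of the E2F-type letters, TTTGGCGC was in 1 lncRNA window (0.441%), against 0.246% and 0.693%. TTTCGCGC was in 2 lncRNA windows (0.881%), against 0.118% and 0.351%. Counts of 1 and 2 are too few to rank these shares. CCGCCATN, the YY1 core, was in 4.41%, against 2.08% and 4.75%. Listed protein-coding windows, which met the same count minimum, held CAGCTG in 15.6%, CAGGTG in 17.7% and TATAAA in 7.58%. They held GATTGG in 20.3%, CCGCCATN in 6.92%, TTTGGCGC in 1.03% and TTTCGCGC in 0.536%. No share was tested, and a match of letters is not a bound site.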

How the data were processed

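Gene tables were made from RNA-seq of C2C12 cells in 4 groups of 2 libraries. The authors aligned reads to GRCm38 with hisat2, used featureCounts with Ensembl annotation version 102 for gene counts, fitted DESeq2 and deposited genes at FDR ≤ 0.05. Program versions and strand setting are not given in the sources used here. The value used is a signal, the mean normalized count (reads divided by DESeq2 size factors), which the authors averaged over libraries and deposited in each of the 3 tables. The tables also hold the authors' log2 fold change, its standard error, Wald statistic, p-value and adjusted p-value, which were not used, nor was an unheaded value beside 1 gene in 2 tables. No value per library was at hand, so depth is unknown and nothing was tested. MeRIP-seq libraries were not analysed here.

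Genes were matched by identifier to GENCODE M21 (GRCm38), from which exon lengths, neighbours, hosted small RNAs and start sites were taken. Promoter windows were read from the GRCm38 genome, because RefSeq promoters were found for 118 of 227 symbols (52%). Named genes were every member in the METTL3 or METTL14 table, the 10 highest by mean count and per kilobase, members of 5 lists (nuclear RNAs, snoRNA hosts, miRNA hosts, Hox cluster and muscle transcripts), up to 3 per position or hosted RNA pattern, and Mir99ahg. Other names (the genes at the limit, the lowest per kilobase, other hosts, neighbours and marker genes) were chosen after their values were seen. Members and lists were chosen with earlier results of these data known. Alternatives were other count minimums, gene types, distances, strands and windows. Python 3.11.15, pandas 2.3.3, NumPy 2.4.6, SciPy 1.17.1, pyfaidx 0.9.0.4 and matplotlib 3.10.9 were used.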

Additional observations from a re-analysis of the deposited data

How the results depend on the processing

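With no count minimum 463 lncRNAs were in the D4 table and 473 in at least 1 table. With a minimum of 50 these were 117 and 121, and with 100 they were 67 and 69, with 10 in the METTL3 and 4 in the METTL14 table. With lincRNAs only they were 119 and 125. With processed transcripts and TEC genes added they were 344 and 355, with 28 in the METTL3 and 13 in the METTL14 table. The share overlapping a coding gene on the other strand was 25.1% by nearest start site and 30.4% at a minimum of 100. Within 10 kb, 100% of the METTL14 lncRNAs (2 of 2) had a listed neighbour. The METTL3 neighbour share was 75% within 10 kb (6 of 8) and 40% at a minimum of 100 (4 of 10). Other values stayed within 1.5 times the count or within the 95% exact binomial interval of the share, which covers counting error only. No paired analysis was possible because the tables hold no value per library, and for the same reason no library could be left out. Genes outside the tables have no value, so shares are of genes listed somewhere.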

Other observations

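The type label sets which transcripts count as lncRNAs here. Processed transcripts whose mean normalized count reached 20 numbered 64, of which 61 were in the D4, 7 in the METTL3 and 4 in the METTL14 table. Among them AI506816 (3626 normalized counts), Mir100hg (2394), 1110038B12Rik (1542), Gas5 (1423), Zfas1 (1222) and Snhg17 (1100) were in the D4 table alone, at levels that only 8 of the 227 lncRNAs reached. Crnde (113) and Platr14 (110) were in all 3 tables. Hoxa11os (106), antisense in the HoxA cluster, was in the METTL3 table alone. Mir100hg, on chromosome 9, and Mir99ahg, on chromosome 16, hold miRNAs of 1 seed, miR-100 and miR-99a, and each holds a copy of Mir125b.
mmu-miR-100-5p: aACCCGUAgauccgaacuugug
mmu-miR-99a-5p: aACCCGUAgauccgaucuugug

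One of the 227 lncRNAs, Gm47283 (89.9 normalized counts, D4 table), is annotated on chromosome Y (90784738 to 90816464) in M21, where its type is protein-coding. Xist stood at 29877 normalized counts in the same libraries. Whether reads of a related locus were counted for Gm47283 was not tested. Of the 227 lncRNAs, 26.4% had a single exon, against 8.37% of annotated lncRNA genes, and their median exon length was 2538 bp, against 1000.5 bp.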
